A study of Mus musculus with 6 samples.

Results

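The respiratory chain of mouse mGB2 glioblastoma cells was followed through the RNA of its subunit genes, separately for the genes of the nucleus and those of mitochondrial DNA. Members were taken by gene name: the Nduf, Sdh, Uqc, Cox4 to Cox8, Cyc1, Cycs and Atp5 genes, and the mt-Nd, mt-Co, mt-Cytb and mt-Atp genes, with pseudogenes marked as such by name left out. The rule found 111 of the 49585 genes listed, of which 98 were nuclear and 13 mitochondrially encoded. The nuclear members comprised 85 genes of subunits, 11 of assembly factors of complexes I and III, and the related Atp5s and Atp5sl. Expression was high enough for a test in 107 members. Cox4i2, Cox6b2, Cox7b2 and Cox8c were not tested, and none of them had more than 10 counts summed over the 3 libraries of either group.

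RNA was sequenced from 3 libraries with the genotype Bcat1-KO and 3 control libraries of this line, whose labels give its cell type as glioblastoma stem cell. All cells were untreated and grew attached to coated plates in a glioblastoma stem cell medium with EGF and FGF. The labels do not say how Bcat1 was targeted, whether the line is 1 clone, or whether the replicates were separate cultures, so p-values reflect only how far these samples vary, which may be technical. Bcat1 encodes the cytosolic transaminase of the branched-chain amino acids.

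Libraries held 29543157 to 37800648 gene counts on the transcribed strand. Bcat1 RNA stood at 155, 176 and 173 CPM (counts scaled to the size of the library) in the knockout libraries and 214, 223 and 232 CPM in the control libraries, a log2 fold change of -0.41 (± 0.07 SE, edgeR adjusted p = 0.000355). The transcript was thus still present in all libraries labelled knockout, and since the altered part of the gene is not stated in the labels, its level does not check them. Of 10 neural and glioblastoma stem cell markers, 9 reached 1 CPM in a library, and their summed level was 2378 to 2580 CPM in the knockout libraries, against 1539 to 1610 CPM in the controls. Of 7 immune markers 1 reached 1 CPM and Itgam was at 0, of 5 endothelial markers none did and Cldn5 was at 0, and of 6 striated muscle markers 1 did and Actn2 was at 0. Of 5 fibroblast markers 2 did, with sums of 24.4 to 28.4 CPM in the knockout libraries, against 37.6 to 41.6 CPM in the controls. The part of these differences in the results was not tested. In such bulk samples, fewer cells of a kind and less RNA per cell cannot be told apart.

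The respiratory chain passes electrons from NADH through complex I, or from succinate through complex II, to coenzyme Q, then through complex III and cytochrome c to complex IV, which reduces oxygen. Complexes I, III and IV pump protons, and ATP synthase uses the gradient to make ATP. Complex II and cytochrome c are encoded wholly in the nucleus, whereas the other complexes combine nuclear subunits with core subunits translated inside the mitochondrion. Transcription of the nuclear genes is known to be driven by the factors NRF1, GABP, YY1 and the estrogen-related receptors with coactivators of the PGC-1 family, and that of mitochondrial DNA by the polymerase Polrmt with Tfam and Tfb2m.

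The start sites of nuclear subunit genes were examined because most of these genes were higher in the knockout. Promoters are shown for 4 genes that were higher in the knockout and for Ndufs7, which was lower. Each runs 5′ to 3′ on the strand of the gene, from 250 bases before to 50 bases after the start site in RefSeq's table for GRCm38.p6, the build also called mm10. Capitals mark a match on either strand to the NRF1 motif in Sdha and Uqcrc1, to the ETS-family motif CCGGAAGT, which GABP is known to bind, in Cox8a, and to the YY1 motif in Ndufs7. A second ETS-family motif, GGAAGTG, which shares letters with the first, was also searched. The NRF1 and YY1 motifs are given by name, and their letters are those in capitals, with any base allowed in the middle of the NRF1 motif. Uqcr10 holds none of the 4 in its window.
Sdha promoter, chr13:74350191-74350490, minus strand: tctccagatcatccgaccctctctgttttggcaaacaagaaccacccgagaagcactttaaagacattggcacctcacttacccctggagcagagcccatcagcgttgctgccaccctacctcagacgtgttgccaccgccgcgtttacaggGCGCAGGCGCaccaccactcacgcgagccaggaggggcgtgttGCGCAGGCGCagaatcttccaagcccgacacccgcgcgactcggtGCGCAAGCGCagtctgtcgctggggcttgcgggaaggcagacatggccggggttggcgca
Uqcrc1 promoter, chr9:108936398-108936697, plus strand: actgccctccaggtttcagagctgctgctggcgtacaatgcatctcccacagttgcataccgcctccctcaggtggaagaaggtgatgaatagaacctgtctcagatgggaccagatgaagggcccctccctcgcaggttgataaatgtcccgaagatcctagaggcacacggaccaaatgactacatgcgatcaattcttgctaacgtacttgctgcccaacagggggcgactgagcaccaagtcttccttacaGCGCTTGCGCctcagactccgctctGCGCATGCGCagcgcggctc
Cox8a promoter, chr19:7217567-7217866, minus strand: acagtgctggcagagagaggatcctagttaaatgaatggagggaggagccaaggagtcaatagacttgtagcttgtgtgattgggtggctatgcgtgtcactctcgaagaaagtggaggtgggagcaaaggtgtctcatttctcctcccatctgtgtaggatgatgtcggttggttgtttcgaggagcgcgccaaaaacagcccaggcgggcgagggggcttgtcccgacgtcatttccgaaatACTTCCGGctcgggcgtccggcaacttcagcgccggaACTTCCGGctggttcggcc
Uqcr10 promoter, chr11:4704295-4704594, minus strand: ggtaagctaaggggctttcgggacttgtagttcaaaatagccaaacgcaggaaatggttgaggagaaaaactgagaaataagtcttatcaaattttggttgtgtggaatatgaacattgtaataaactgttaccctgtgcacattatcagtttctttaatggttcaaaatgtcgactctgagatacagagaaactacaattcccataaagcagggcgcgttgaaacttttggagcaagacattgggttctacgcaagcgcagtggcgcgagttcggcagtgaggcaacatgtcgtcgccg
Ndufs7 promoter, chr10:80249199-80249498, plus strand: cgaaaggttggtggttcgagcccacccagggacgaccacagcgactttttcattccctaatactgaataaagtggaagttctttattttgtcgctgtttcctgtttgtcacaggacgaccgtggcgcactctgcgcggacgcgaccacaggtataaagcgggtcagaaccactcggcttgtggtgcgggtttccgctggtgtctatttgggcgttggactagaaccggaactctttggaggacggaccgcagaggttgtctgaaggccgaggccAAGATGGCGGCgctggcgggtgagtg

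Of the 85 nuclear subunit genes 69 were matched to a promoter, and 67 of these were tested. The NRF1 motif was present in 17 of the 67 (25.4%), against 11.6% of 10298 tested genes and 5.19% of 27025 genes in the table. Among subunit genes called higher it was present in 13 of 44 (29.5%), and among those tested and not called higher in 4 of 23 (17.4%). Among all tested genes called higher its share was 11.9%, close to that of all tested genes. The YY1 motif was present in 4 of 67 tested subunit genes (5.97%) against 1.81% of tested genes. For the ETS motifs the shares were 16.4% against 16.4% for GGAAGTG and 7.46% against 9.15% for CCGGAAGT. Among subunit genes called higher, the shares were 4.55% for YY1, 15.9% for GGAAGTG and 9.09% for CCGGAAGT. Among those tested and not called higher they were 8.70%, 17.4% and 4.35%. Differences between these shares were not tested. A match is a description of the letters in the window and was not tested as a binding site.

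Some mitochondrial genes have near-identical copies in a nuclear insertion on chromosome 1, which bears on how their reads can be counted. Beside each other stand 60 bases of mt-Co1, the catalytic subunit of complex IV, with its copy Gm29216, and of mt-Co2, the complex IV subunit that takes electrons from cytochrome c, with its copy Gm28661, as GENCODE M21 transcripts give them. Capitals mark the single base that differs between mt-Co1 and its copy over their 483 aligned bases, and mt-Co2 shows none because it equals its copy over 681 bases.
mt-Co1, chrM:6390-6449, plus strand: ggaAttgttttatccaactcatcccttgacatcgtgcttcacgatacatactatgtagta
Gm29216, chr1:24616129-24616188, minus strand: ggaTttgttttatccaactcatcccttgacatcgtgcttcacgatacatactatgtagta
mt-Co2, chrM:7013-7072, plus strand: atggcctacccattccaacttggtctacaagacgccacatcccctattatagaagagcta
Gm28661, chr1:24615506-24615565, minus strand: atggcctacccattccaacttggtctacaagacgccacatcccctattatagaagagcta

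Identical stretches were also found for mt-Atp6 over 678 bases, mt-Co3 over 783, mt-Nd3 over 342, mt-Nd4l over 294 and mt-Nd4 over 876 of 1378 bases. Only the annotated genes of this insertion were compared, and none was matched to mt-Nd1, mt-Nd2, mt-Nd5, mt-Nd6, mt-Cytb or mt-Atp8. mt-Co2 held 136 to 217 counts per library and its copy 179 to 334, whereas mt-Co1 held 174044 to 365655. The copy of mt-Co1 held 932, 220 and 126 counts in the knockout libraries, against 152, 144 and 90 in the controls. The sources used here do not say how reads that match several places were counted. The counts of mt-Co2, mt-Co3, mt-Atp6, mt-Nd3 and mt-Nd4l are therefore uncertain. So are those of mt-Nd4 and mt-Co1 over their shared stretches, which for mt-Co1 hold 479 identical bases in a row of its 1545. mt-Atp8 lies between mt-Co2 and mt-Atp6. The bases between their copies on chromosome 1 were not compared, so the counts of mt-Atp8 are uncertain too.

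Nuclear subunit genes were mostly higher in the knockout, and mitochondrially encoded genes were not. Of 81 nuclear subunit genes tested, 54 were called higher (66.7%), 3 lower (3.7%) and 24 neither, where 32% of all 14020 tested genes were called higher and 30.3% lower, together 62.3%. Their median log2 fold change was 0.38, against 0.01 over all genes tested. Among all genes whose mean log2 CPM was 5 or more, 32.8% were called higher. Of the 13 mitochondrially encoded genes 1 was called higher (7.69%) and 4 lower (30.8%), with a median of -0.31. A call is an adjusted p under 0.05 in the quasi-likelihood test of edgeR, adjusted by Benjamini-Hochberg over all tested genes, and all adjusted p values are of this test unless another is named.

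In 57 nuclear subunit genes (70.4%) every knockout library lay above every control library, and in 3 every one lay below. The shares over all tested genes were 35.1% and 32.5%. By at least 1.5-fold, 17 subunit genes were called higher and none lower, beside 16% and 16.3% of all tested genes, and the log2 fold changes of all 81 ran from -0.31 to 3.27. Knockout replicate 1 was the highest of its group for 66 of the 81 genes, and control replicate 1 the lowest of its group for 70. Without knockout replicate 1, 52 genes were called higher and 5 lower, with a median of 0.28, and without control replicate 1, 50 were called higher and 3 lower, with a median of 0.31.

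**Figure D1:**
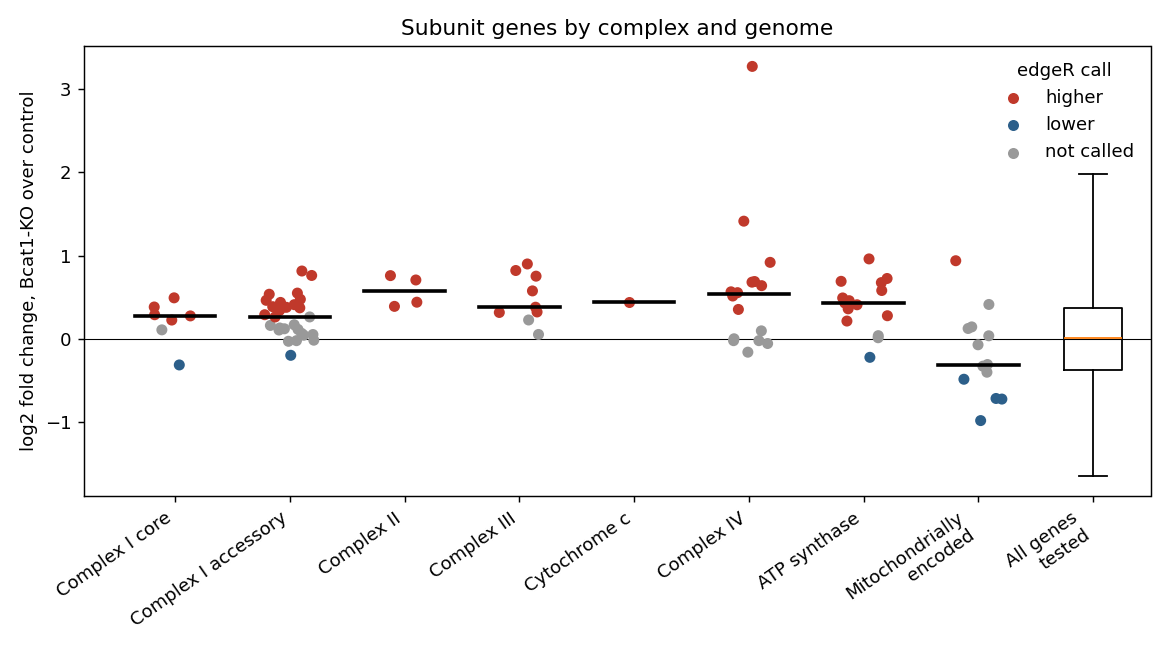
Log2 fold change of Bcat1-KO over control for each tested subunit gene, by complex for the nuclear genes and together for the 13 mitochondrially encoded genes, coloured by the edgeR call, with black bars at the medians. The box at the right shows all 14020 tested genes (median, quartiles, and whiskers at the 5th and 95th percentiles), and the medians of the nuclear groups lie above 0 while that of the mitochondrially encoded genes lies at -0.31.

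Complex I, the NADH dehydrogenase, had the smallest median of the nuclear groups, with 20 of 36 subunit genes higher, 2 lower and a median of 0.27. The counts of each complex here and below stand beside 32% higher and 30.3% lower over all tested genes. Its 7 nuclear core subunits, which carry the flavin and the iron-sulfur clusters, had 5 higher and 1 lower, and its 29 accessory subunits 15 higher and 1 lower. Ndufv2 (ENSMUSG00000024099.14, chromosome 17 from 66078795 to 66101559 in mm10), a core subunit with an iron-sulfur cluster, stood at 207, 204 and 195 CPM in the knockout libraries, against 135, 148 and 148 CPM in the controls. All knockout libraries lay above all control libraries, with a log2 fold change of 0.49 (± 0.07 SE, edgeR adjusted p = 4.91e-05). Ndufs1, the largest core subunit, stood at 191, 205 and 203 CPM against 145, 157 and 157 CPM, also with no overlap and a log2 fold change of 0.38. Ndufs8, a core subunit with 2 iron-sulfur clusters in the arm that leads to coenzyme Q, stood at 159, 136 and 151 CPM against 113, 127 and 125 CPM, with a log2 fold change of 0.29.

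Ndufs7 (ENSMUSG00000020153.14, chromosome 10 from 80249121 to 80256794 in mm10), the core subunit holding the last iron-sulfur cluster before coenzyme Q, went the other way. It stood at 95.5, 87.3 and 94.8 CPM in the knockout libraries, against 112, 116 and 117 CPM in the controls. Every knockout library was below every control library, and the log2 fold change was -0.31 (± 0.06 SE, edgeR adjusted p = 0.00103). The accessory subunit Ndufa13, also known as GRIM-19, was lower as well, at 133, 116 and 126 CPM against 138, 146 and 146 CPM, with a log2 fold change of -0.20 (adjusted p = 0.0253 by edgeR). Every knockout library was below every control library, by a narrow margin. Leaving out knockout replicate 2, control replicate 2 or control replicate 3 ended the call, with edgeR adjusted p values of 0.073 to 0.088.

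The accessory subunits that rose most were Ndufa5, Ndufs5 and Ndufa8. Ndufa5, which sits in the matrix arm, stood at 48.9, 44.9 and 40.3 CPM in the knockout libraries, against 24.8, 23.6 and 27.8 CPM in the controls. The groups were far apart, with a log2 fold change of 0.82 (± 0.09 SE, edgeR adjusted p = 1.07e-05). Ndufs5 and Ndufa8, both of the kind folded by the disulfide relay of the intermembrane space, had log2 fold changes of 0.76 and 0.55. Ndufs5 was at 42.5, 36.8 and 39.5 CPM against 21.0, 24.6 and 24.4 CPM, and Ndufa8 at 108, 88.9 and 97.7 CPM against 62.5, 71.0 and 67.8 CPM, both without overlap.

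Complex II, succinate dehydrogenase, had all 4 of its genes higher, with a median log2 fold change of 0.57. The catalytic flavoprotein Sdha (ENSMUSG00000021577.13, chromosome 13 from 74322254 to 74350280 in mm10) stood at 577, 541 and 563 CPM in the knockout libraries, against 410, 429 and 442 CPM in the controls. The log2 fold change was 0.39 (± 0.07 SE, edgeR adjusted p = 0.000392), with no overlap. The iron-sulfur subunit Sdhb had a similar change, 0.44, from 126 ± 7.24 to 172 ± 6.98 CPM (mean ± SD, n = 3 each). The membrane anchors, which bind coenzyme Q, had larger estimates. Sdhc was at 290, 217 and 216 CPM against 141, 154 and 147 CPM, with a log2 fold change of 0.71 and with knockout replicate 1 above the rest of its group. Sdhd was at 159, 139 and 141 CPM against 80.4, 90.2 and 88.4 CPM, with a log2 fold change of 0.76. The difference between anchors and catalytic subunits was not tested.

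Complex III, which passes electrons from coenzyme Q to cytochrome c, had 7 of 9 nuclear genes higher and none lower, with a median of 0.38. Uqcr10 (ENSMUSG00000059534.8, chromosome 11 from 4701973 to 4704342 in mm10), a small subunit beside cytochrome c1, stood at 148, 125 and 120 CPM in the knockout libraries, against 64.5, 72.6 and 73.5 CPM in the controls. Its log2 fold change of 0.90 (± 0.09 SE, edgeR adjusted p = 3.18e-06) came without overlap between the groups. The core protein gene Uqcrc1 stood at 277, 257 and 273 CPM against 145, 152 and 159 CPM, with a log2 fold change of 0.82. Cyc1, the cytochrome c1 that hands electrons to cytochrome c, stood at 366, 281 and 298 CPM against 180, 187 and 193 CPM, with a log2 fold change of 0.75. The Rieske iron-sulfur protein gene Uqcrfs1 did not pass the test: it stood at 152, 127 and 124 CPM against 121, 136 and 131 CPM, and the groups overlapped. Cytochrome c itself, from Cycs, rose from 94.9, 106 and 105 CPM in the controls to 132, 139 and 144 CPM in the knockout libraries, a log2 fold change of 0.44 (± 0.07 SE, edgeR adjusted p = 0.000142).

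Complex IV, cytochrome c oxidase, had 10 of 16 tested nuclear genes higher and none lower, with a median of 0.54. Ndufa4 (ENSMUSG00000029632.7, chromosome 6 from 11900292 to 11907497 in mm10), named for complex I but a subunit of complex IV, stood at 210, 161 and 161 CPM in the knockout libraries, against 87.4, 93.3 and 101 CPM in the controls. It had no overlap and a log2 fold change of 0.92 (± 0.10 SE, edgeR adjusted p = 1.19e-05). Cox6c, a small membrane subunit, stood at 172, 149 and 133 CPM against 94.2, 95.6 and 93.6 CPM, with a log2 fold change of 0.68. Cox4i1, which binds nucleotides and is among the first nuclear subunits to join mt-Co1, did not pass the test. It stood at 357, 298 and 302 CPM against 335, 373 and 361 CPM, and the log2 fold change was -0.16 (± 0.08 SE, edgeR adjusted p = 0.117). Without knockout replicate 1 the value was -0.27 with an edgeR adjusted p of 0.0021, so that library decides the call.

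Several complex IV subunits come in isoforms used by different tissues. The liver-type Cox7a2, Cox8a and Cox6a1 and the ubiquitous Cox6b1 and Cox7b were called higher. Cox8a was at 417, 348 and 380 CPM against 226, 259 and 249 CPM, with a log2 fold change of 0.64, and Cox7a2 at 134, 109 and 110 CPM against 65.9, 76.6 and 76.5 CPM, with 0.69. Cox6a1, Cox6b1 and Cox7b had log2 fold changes of 0.35, 0.56 and 0.51. Cox7a2l, an assembly factor of supercomplexes, stood at 240, 179 and 184 CPM against 192, 217 and 203 CPM and did not pass the test. It was lower without knockout replicate 1, by 0.19 on the log2 scale.

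The heart and muscle isoforms were mostly near the limit of detection. Cox8b (ENSMUSG00000025488.9, chromosome 7 from 140898945 to 140900446 in mm10) held 33, 28 and 34 counts in the knockout libraries, against 4, 2 and 2 counts in the controls. At 0.914, 0.728 and 0.935 CPM against 0.127, 0.060 and 0.069 CPM it had the largest log2 fold change of the subunits, 3.27 (± 0.38 SE, edgeR adjusted p = 1.63e-05), at a level far under that of Cox8a. Cox7a1 was at 0.554, 0.338 and 0.413 CPM against 0.159, 0.121 and 0.207 CPM, with a log2 fold change of 1.41 and an edgeR adjusted p of 0.00816, which DESeq2 gave as 0.0506. Cox6a2 was the exception in level. On the scale per length (TPM, in which counts are divided by the annotated exonic length of the gene) Cox6a2 stood at 278 in the control. Its paralog Cox6a1 stood at 677 there. Cox6a2 did not pass the test, at 44.3, 57.4 and 71.5 CPM against 52.8, 65.1 and 62.1 CPM. Summed markers of striated muscle were at 0.997 to 1.29 CPM in the knockout libraries, against 2.11 to 2.48 CPM in the controls.

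Isoforms regulated by oxygen or restricted to testis were scarce. Ndufa4l2, a paralog of Ndufa4 that is induced in hypoxia, had under 1 CPM in each library and a log2 fold change of 0.00 with an SE of 0.38. Cox4i2, the lung and hypoxia isoform, had 0 counts in the knockout libraries, against 3 in the controls (summed over each group), and Cox6b2, known from testis, 10 and 0. Cox7b2 and Cox8c had 0 counts in all 6 libraries. A count of 0 allows up to 3 counts, which corresponds to 0.078 to 0.103 CPM in a library and covers counting error only.

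ATP synthase had 12 of 15 nuclear genes higher and 1 lower, with a median of 0.43. Atp5e (ENSMUSG00000016252.7, chromosome 2 from 174461072 to 174464105 in mm10), the epsilon subunit of the central stalk, stood at 102, 73.6 and 71.8 CPM in the knockout libraries, against 41.9, 43.3 and 42.0 CPM in the controls. Knockout replicate 1 was highest, all knockout libraries lay above the control, and the log2 fold change was 0.96 (± 0.12 SE, edgeR adjusted p = 2.35e-05). The gamma subunit Atp5c1, the rotating shaft, stood at 539, 444 and 415 CPM against 268, 292 and 286 CPM, with a log2 fold change of 0.73. The delta subunit Atp5d, the third protein of the same stalk, was lower, at 251, 213 and 235 CPM against 256, 285 and 275 CPM. Its log2 fold change was -0.22 (± 0.08 SE, edgeR adjusted p = 0.026), and the groups lay close together. The call was lost without knockout replicate 2, control replicate 2 or control replicate 3, with edgeR adjusted p values of 0.0666 to 0.0934.

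The catalytic ring of ATP synthase is made of alpha and beta subunits. The alpha subunit gene Atp5a1 rose from 515 ± 20.6 to 823 ± 153 CPM (mean ± SD, n = 3 each), a log2 fold change of 0.68, with much of the spread from knockout replicate 1. The beta subunit gene Atp5b rose by 0.21 on the log2 scale (edgeR adjusted p = 0.0377), but the call was lost without knockout replicate 1 (0.16, edgeR adjusted p = 0.0601) and without control replicate 1 (0.17, edgeR adjusted p = 0.121). Subunit c of the membrane rotor is made from 3 genes whose mature proteins are the same. Only Atp5g3 of these was called higher, at 419, 373 and 372 CPM against 222, 249 and 250 CPM, and its log2 fold change was 0.69 (± 0.08 SE, edgeR adjusted p = 1.17e-05). Atp5g1 and Atp5g2 had log2 fold changes of 0.01 and 0.04 with overlapping groups. On the TPM scale in the control, Atp5g1 stood at 126, Atp5g2 at 368 and Atp5g3 at 348. Their control means in CPM were 196, 195 and 240, and their annotated exonic lengths 4912, 1675 and 2181 bases. The gap between Atp5g1 and Atp5g2 in TPM thus comes from the length used. Which transcripts were made was not tested.

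Assembly factors with names inside the rule followed a like pattern, with 6 of 11 higher (54.5%), 1 lower (9.09%) and a median of 0.32. The shares over all tested genes were 32% and 30.3%. Ndufaf5, which modifies Ndufs7, stood at 24.3, 23.3 and 22.4 CPM in the knockout libraries, against 12.8, 14.1 and 12.8 CPM in the controls, with no overlap and a log2 fold change of 0.82 (± 0.09 SE, edgeR adjusted p = 6.93e-06). Ndufaf4, a factor of the early complex I intermediate, and Uqcc1, a factor for the translation of mt-Cytb, had log2 fold changes of 0.59 and 0.43. Ndufaf6, also needed for complex I, was lower at 13.5, 11.2 and 9.8 CPM against 14.4, 13.6 and 14.9 CPM, with a log2 fold change of -0.32 (adjusted p = 0.0409 by edgeR). Its call was lost without any 1 of the libraries other than knockout replicate 1, with edgeR adjusted p values of 0.0585 to 0.141. Atp5sl, today known as a complex I assembly protein despite its name, was lower at 5.62, 4.31 and 4.07 CPM against 9.29, 8.71 and 9.5 CPM, with a log2 fold change of -0.97.

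Lower values among the subunits gathered on chromosomes 8 and 10, a grouping chosen after the values were seen. Of 9 tested nuclear subunit genes there, 1 was called higher and 3 lower, with a median of 0.00. Of the 72 on other chromosomes, 53 were called higher and none lower, with a median of 0.39. Genes of these chromosomes were lower in general, with a median over tested genes of -0.37 on chromosome 8 and -0.27 on chromosome 10. Each gene was then set against the median of a window of 51 tested genes that included it. Of 81 nuclear subunit genes, 77 (95.1%) lay above that median, against 49% of all tested genes. In this setting Ndufs7 and Atp5d had values of 0.12 and 0.13 and Ndufa13 and Cox4i1 values of 0.24 and 0.31. All were opposite in sign to those above. The assembly factor gene Ndufaf6, on chromosome 4, was itself the median of its window, at -0.32. Its lack of a difference in this setting was thus fixed by the method. Some values of genes described above also moved by more than 1.5 times. Atp5b moved to 0.70. Values fell to 0.57 for Ndufa4, 0.54 for Ndufaf5, 0.51 for Atp5e, 0.37 for Cox7a2 and Cox6c, 0.27 for Cox7b and 0.22 for Cycs. Each was still called higher. Other subunit genes moved as far, in both directions. In this setting 58 subunit genes were called higher, 50 of them among the 54 called higher before. Uqcrh (0.02), Ndufb10 (0.11), Ndufs3 (0.16) and Ndufa1 (0.17) lost their calls. The part of the neighbourhood in the values of these genes was not tested further.

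**Figure D2:**
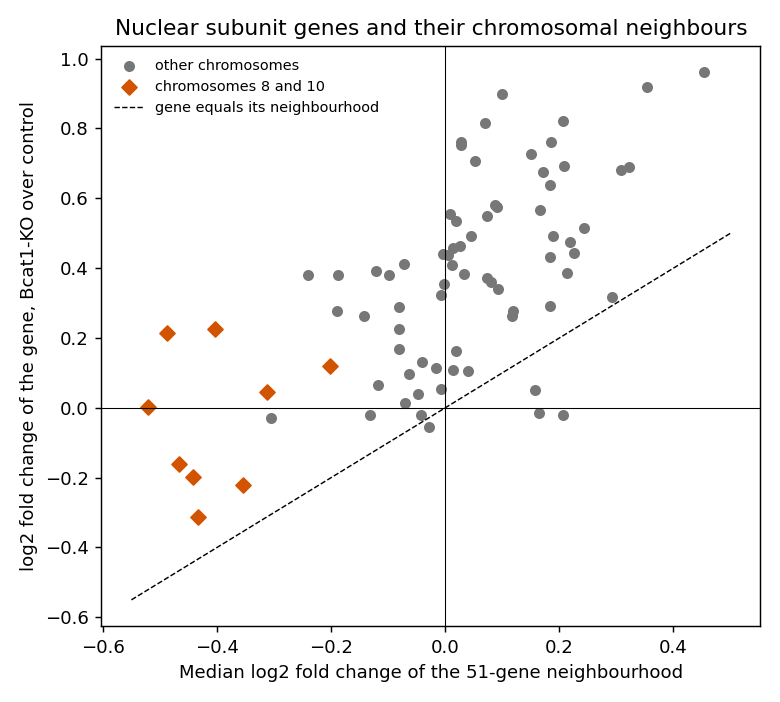
Log2 fold change of Bcat1-KO over control for nuclear subunit genes (vertical axis) against the median of the 51 tested genes around and including each (horizontal axis). Diamonds mark chromosomes 8 and 10, and a dashed line shows where both are equal. Nearly all points, 77 of 81 genes counted with the 2 of 1.2 or more that are not drawn, lie above the line, and the diamonds lie at the left, where the neighbourhood is lower.

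The share of each library's counts held by nuclear subunit genes was higher in every knockout library. It was 1.66%, 1.47% and 1.47% in the knockout libraries, against 1.13%, 1.23% and 1.21% in the controls, or 1.53% ± 0.109 against 1.19% ± 0.0506 (SD, n = 3 each). The 13 mitochondrially encoded genes held 1.51%, 1.90% and 1.28% in the knockout libraries, against 2.23%, 1.55% and 1.48% in the controls. These shares overlapped, with control replicate 1 the highest. The shares, and the ratio below, rest mainly on mt-Co1, mt-Nd1, mt-Nd2, mt-Nd4, mt-Nd5 and mt-Cytb. The counts of mt-Co2, mt-Co3, mt-Atp6, mt-Atp8, mt-Nd3 and mt-Nd4l were few and uncertain, with 136 to 217 per library for mt-Co2. The ratio of mitochondrially encoded to nuclear subunit counts was 0.914, 1.30 and 0.871 in the knockout libraries, against 1.97, 1.26 and 1.23 in the controls, a difference of -0.52 in mean log2 ratio. Knockout replicate 2 exceeded 2 of the control libraries in this ratio. Without control replicate 1 the difference was -0.30, and without knockout replicate 2 it was -0.70.

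**Figure D3:**
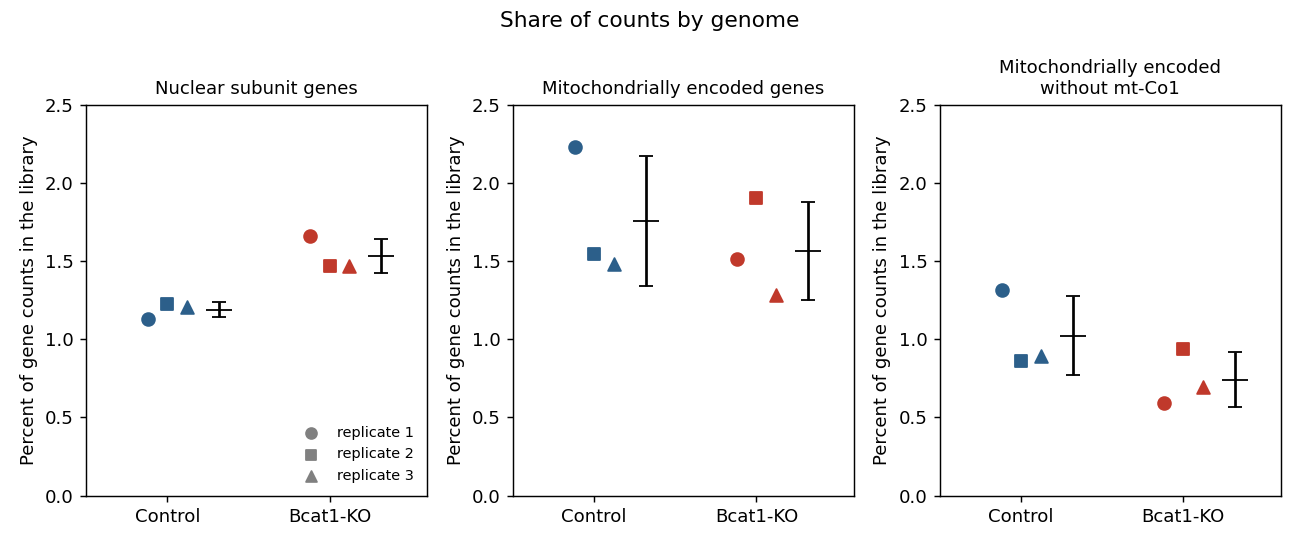
Percent of gene counts per library held by nuclear subunit genes, by mitochondrially encoded genes, and by the latter without mt-Co1, with symbols for replicates 1 to 3 and the mean ± SD beside them. The nuclear share is higher in all 3 knockout libraries (1.47% to 1.66% against 1.13% to 1.23%), whereas the mitochondrial shares overlap between the groups. Few and uncertain counts of mt-Co2, mt-Co3, mt-Atp6, mt-Atp8, mt-Nd3 and mt-Nd4l enter the mitochondrial shares.

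One gene, mt-Co1, held much of the counted mitochondrial signal, with 0.919%, 0.967% and 0.588% of counts in the knockout libraries, against 0.916%, 0.687% and 0.589% in the controls. It did not pass the test, with a log2 fold change of 0.14 (± 0.19 SE, edgeR adjusted p = 0.528). Without it, the mitochondrial to nuclear ratio was 0.359, 0.637 and 0.472 in the knockout libraries, against 1.16, 0.700 and 0.739 in the controls. All knockout libraries were then below all control libraries, with a difference of -0.83.

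The subunits of complex I encoded in mitochondrial DNA form its proton-pumping membrane arm, and 4 of these 7 genes were lower in the knockout. mt-Nd1 (ENSMUSG00000064341.1, the mitochondrial chromosome from 2751 to 3707 in mm10), at the junction with the matrix arm, stood at 1746, 3062 and 2450 CPM in the knockout libraries, against 5328, 3017 and 3581 CPM in the controls. The groups overlapped at knockout replicate 2, and the log2 fold change was -0.72 (± 0.22 SE, edgeR adjusted p = 0.0128). mt-Nd2 (ENSMUSG00000064345.1, the mitochondrial chromosome from 3914 to 4951 in mm10), a pump subunit, stood at 780, 1337 and 1067 CPM against 2296, 1424 and 1536 CPM, without overlap and with a log2 fold change of -0.72 (± 0.20 SE, edgeR adjusted p = 0.00768). mt-Nd4, another pump subunit, stood at 613, 858 and 592 CPM against 1178, 883 and 827 CPM, with an overlap and a log2 fold change of -0.49 (edgeR adjusted p = 0.017). mt-Nd4l, the small subunit whose RNA overlaps that of mt-Nd4, was called lower at 0.556 ± 0.182 CPM in the controls, as opposed to 0.279 ± 0.0497 CPM in the knockout (SD, n = 3 each), but this rests on 8 to 24 counts per library and an identical copy exists on chromosome 1.

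These calls leaned on control replicate 1, the library with the highest mitochondrial share. Without it, only mt-Nd2 of the 13 genes was called lower, at -0.49 (edgeR adjusted p = 0.049). mt-Nd1 then stood at -0.46 and mt-Nd4 at -0.33, with edgeR adjusted p values of 0.0801 and 0.097. The mt-Nd4 call was also lost without knockout replicate 3 (-0.40, edgeR adjusted p = 0.0583) and with DESeq2 (adjusted p = 0.0584). That of mt-Nd4l was lost without knockout replicate 1 or 3 (edgeR adjusted p = 0.0618 and 0.0501) and with DESeq2 (adjusted p = 0.096). It was lost too with a replicate block (edgeR adjusted p = 0.0561) and with a gene length offset (edgeR adjusted p = 0.0546). mt-Nd5, the pump subunit at the far end of the arm, did not pass the test. It stood at 1006, 1141 and 884 CPM against 1183, 931 and 840 CPM, and the log2 fold change was 0.04.

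mt-Nd6 (ENSMUSG00000064368.1, the mitochondrial chromosome from 13552 to 14070 in mm10) was the only mitochondrially encoded gene called higher, and the only one of these 13 on the light strand of mitochondrial DNA. It stood at 10.8, 9.85 and 17 CPM in the knockout libraries, against 8.68, 5.63 and 5.27 CPM in the controls. The groups did not overlap, and the log2 fold change was 0.94 (± 0.23 SE, edgeR adjusted p = 0.00349). Of the reads over mt-Nd6, 94.4% to 97.9% lay on the other strand in every library, where mt-Nd5 ends and the heavy-strand transcript runs on. With counts taken from both strands the log2 fold change was 0.27 (edgeR adjusted p = 0.0237). On its own strand mt-Nd6 held 389, 379 and 617 counts in the knockout libraries, against 273, 187 and 153 in the controls. Over the longer neighbour mt-Nd5, reads on this same strand numbered 808, 611 and 1394 against 434, 351 and 257. Whether the mt-Nd6 reads came from its messenger or from a longer light-strand transcript was not tested.

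The remaining mitochondrial genes did not pass the test. mt-Cytb, the core of complex III, stood at 1700, 2760 and 1929 CPM in the knockout libraries, against 3209, 2420 and 2282 CPM in the controls, with a log2 fold change of -0.31 (± 0.17 SE, edgeR adjusted p = 0.14). For complex IV, mt-Co2 had -0.33 and mt-Co3 -0.40, the latter with an edgeR adjusted p of 0.0534. For ATP synthase, mt-Atp6 had 0.12 and mt-Atp8 -0.07, and mt-Nd3 of complex I had 0.41. These 5 genes had under 7 CPM in every library. All except mt-Atp8 have an identical annotated copy on chromosome 1, and the bases beside the copy of mt-Atp6 were not compared with mt-Atp8.

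**Figure D4:**
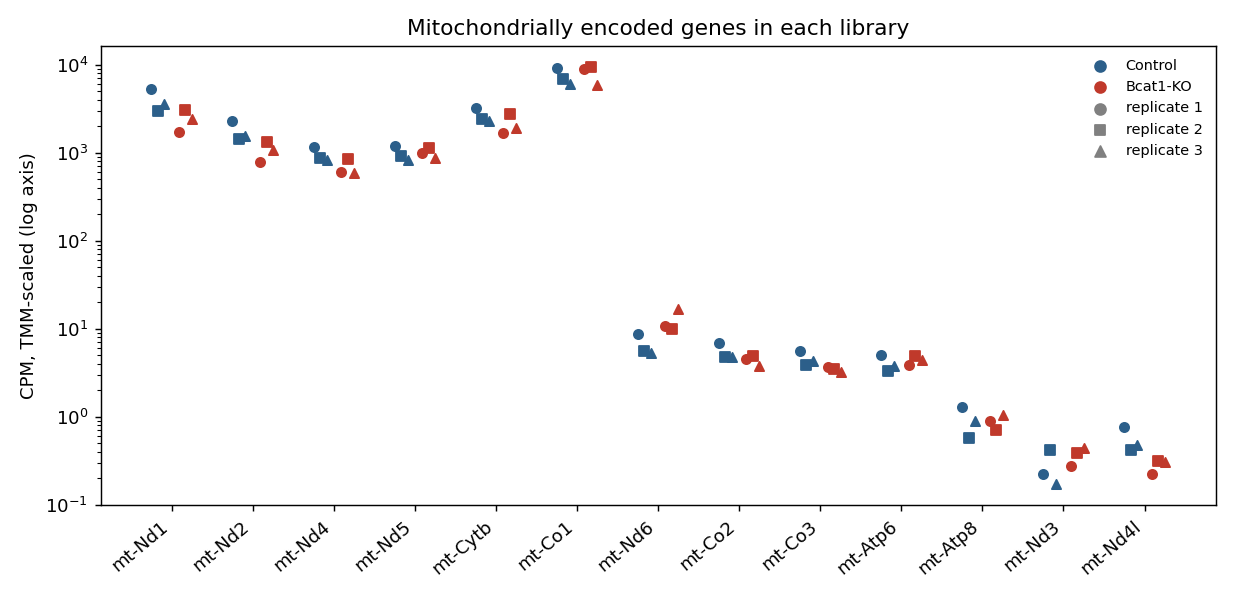
TMM-scaled CPM (log axis) of the 13 mitochondrially encoded genes in each control (blue) and Bcat1-KO (red) library, with symbols for replicates 1 to 3. mt-Nd1, mt-Nd2 and mt-Nd4 are lower in the knockout with control replicate 1 highest, mt-Nd6 is higher, and mt-Co1 overlaps between the groups.

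Since these genes are cut from shared transcripts, their ratios within a library were also set side by side. The ratio of mt-Nd1 to mt-Co1 counts was 0.193, 0.322 and 0.416 in the knockout libraries, against 0.579, 0.434 and 0.598 in the controls, with no overlap. The ratios of mt-Nd2, mt-Cytb and mt-Nd4 to mt-Co1 were likewise lower in every knockout library, by 0.86, 0.46 and 0.62 in mean log2 ratio. The ratio of mt-Nd5 to mt-Co1 overlapped. Counts of mt-Co1 and mt-Nd4 are uncertain over the stretches they share with chromosome 1. The ratio of mt-Nd6 to mt-Cytb, genes that lie next to each other on opposite strands, was 0.00634, 0.00357 and 0.00880 in the knockout libraries, against 0.00271, 0.00233 and 0.00231 in the controls, higher in every knockout library. The library preparation selects poly(A) RNA, so these are levels of RNA that passed this selection. Whether the mt-Nd6 reads came from adenylated RNA was not tested. The 2 mitochondrial ribosomal RNAs held under 0.05% of counts in each library.

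Among 14 regulators of respiratory genes, 6 were higher and 6 lower, shares of 42.9% each beside the 32% and 30.3% of all tested genes. Ppargc1a (ENSMUSG00000029167.13, chromosome 5 from 51454250 to 51567726 in mm10), which encodes the coactivator PGC-1alpha, stood at 69.9, 62.4 and 66.3 CPM in the knockout libraries, against 4.04, 3.53 and 3.75 CPM in the controls, with a log2 fold change of 4.13 (± 0.09 SE, edgeR adjusted p = 9.3e-12). All knockout libraries lay far above all control libraries. Of the nuclear receptors that PGC-1alpha can bind, the list held Esrra and Esrrg among others. Esrra went from 42.9 ± 1.81 to 65.7 ± 4.63 CPM and Esrrg from 1.64 ± 0.329 to 4.18 ± 1.71 CPM (SD, n = 3 each), with log2 fold changes of 0.61 and 1.35. Sirt3, the mitochondrial deacetylase, was higher by 0.69, and by 0.45 without knockout replicate 1. The other PGC-1 family gene Pprc1 was lower, at -0.32, and Ppargc1b did not pass the test.

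The transcription factors whose motifs were searched had smaller log2 fold changes than Ppargc1a. Nrf1 did not pass the test, at 60.9, 68.7 and 71.2 CPM in the knockout libraries, against 61.3, 64.5 and 66.9 CPM in the controls. The GABP subunit gene Gabpa was higher by 0.21, its partners Gabpb1 and Gabpb2 were lower at -0.26 and -0.49, and Yy1 was lower at -0.21.

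Among 37 genes of mitochondrial gene expression, 15 were higher and 7 lower, shares of 40.5% and 18.9% beside the 32% and 30.3% of all genes. Those with the largest changes were the mitochondrial exonuclease Mgme1 at 0.85, Taco1, which promotes translation of mt-Co1, at 0.84, and Mterf2, a protein that binds mitochondrial DNA, at 0.70. Polrmt, the mitochondrial RNA polymerase, was lower at 51.1, 58.2 and 69.4 CPM in the knockout libraries, against 80.5, 80.02 and 85.9 CPM in the controls, with no overlap and a log2 fold change of -0.46 (± 0.10 SE, edgeR adjusted p = 0.00138). Slirp, which with Lrpprc stabilizes mitochondrial messengers, was lower at -0.49, from 47.7 ± 3.03 to 34 ± 1.24 CPM (SD, n = 3 each). Lrpprc and Tfam did not pass the test, and Tfb2m was higher by 0.41. Polrmt, Tfam and Mterf2 lie on chromosome 10, whose genes were lower in general. The median of the 51 genes around Polrmt, itself included, was -0.44.

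**Figure D5:**
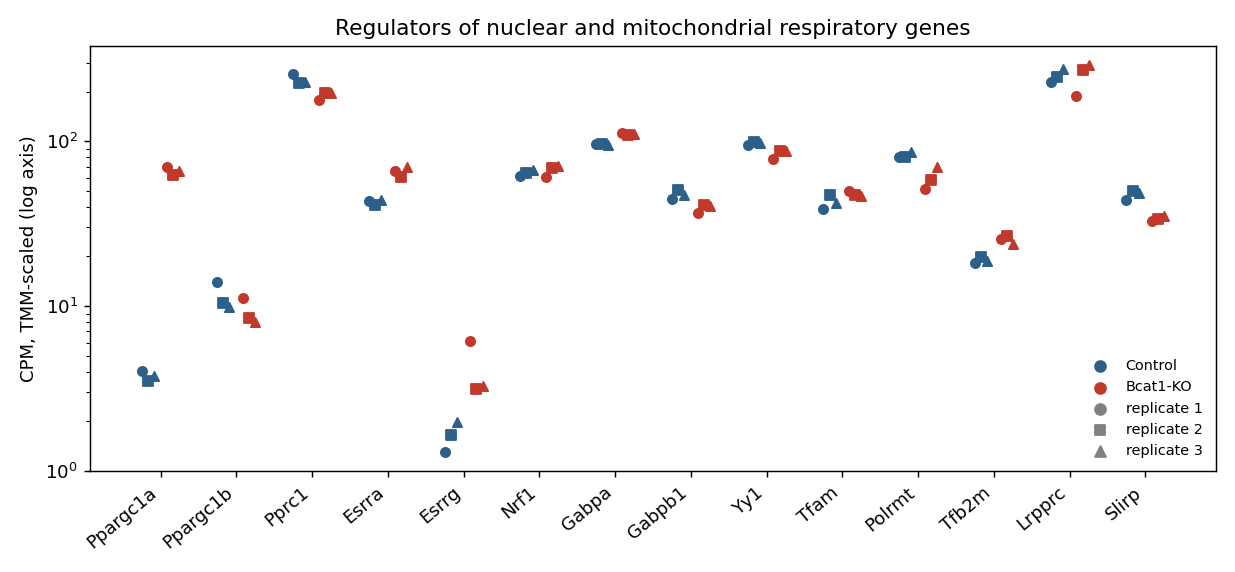
TMM-scaled CPM (log axis) of genes known to regulate nuclear or mitochondrial respiratory genes in each control (blue) and Bcat1-KO (red) library, with symbols for replicates 1 to 3. Ppargc1a lies at 62.4 to 69.9 CPM in the knockout libraries, against 3.53 to 4.04 CPM in the controls, while Nrf1 overlaps and Polrmt and Slirp are lower in the knockout.

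Assembly factors outside the name rule were examined complex by complex, and differences between these lists were not tested. Of 26 tested complex IV assembly genes 13 were higher (50%) and 4 lower (15.4%), beside 32% and 30.3% of all tested genes. Smim20 (ENSMUSG00000061461.11, chromosome 5 from 53267083 to 53278540 in mm10), needed to stabilize newly made mt-Co1, had 0 counts in the 3 knockout libraries together and 995 in the control, at least 391-fold lower against a floor of 3 counts over the group. Cox16, which acts in the building of mt-Co2, stood at 0.39, 0.81 and 0.66 CPM in the knockout libraries, against 4.74, 5.45 and 5.64 CPM in the controls, a log2 fold change of -3.08 (± 0.23 SE, edgeR adjusted p = 2.82e-07). The groups were far apart. Coa4, another complex IV factor, was higher by 1.10, from 3.19 ± 0.568 to 6.85 ± 0.324 CPM (SD, n = 3 each).

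For complex I, 6 of 9 factors outside the rule were higher (66.7%) and 2 lower (22.2%), beside the same 32% and 30.3%. Those higher included Ecsit at 0.50 and Tmem70, shared with ATP synthase, at 0.43. The iron-sulfur carrier Nubpl was higher by 0.48 (0.20 and not called with the neighbourhood median removed). For complex II, 3 of 4 were higher (75%), with Sdhaf4, which acts on Sdha, at 0.69. For complex III, 5 of 6 listed factors were higher (83.3%), but 3 of the 5 are Uqcc members counted above. Lyrm7, the Rieske protein's chaperone, stood at 1.2. For ATP synthase, 2 of 5 were higher (40%, not far from the 32% of all tested genes), Fmc1 at 0.87 and Tmem70. None of the factors listed for complexes II and III or ATP synthase was lower.

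Routes into coenzyme Q other than complexes I and II were also examined. Of 7 tested electron donors 5 were higher (71.4%) and 2 lower (28.6%), beside 32% and 30.3% of all tested genes. Gpd2, the mitochondrial glycerol-3-phosphate dehydrogenase, stood at 105, 110 and 119 CPM in the knockout libraries, against 58.1, 53.8 and 56.8 CPM in the controls, with no overlap and a log2 fold change of 0.99 (± 0.07 SE, edgeR adjusted p = 1.67e-07). Etfdh, which accepts electrons from fatty acid and amino acid oxidation, was higher by 0.52, and Etfb, a subunit of the flavoprotein that feeds it, was lower at -0.73. Of 13 coenzyme Q synthesis genes 4 were higher and 4 lower, 30.8% each and so close to the shares over all tested genes, with Coq7 at 0.59, Coq10a at -0.53 (-0.16 and not called with the neighbourhood median removed) and Coq8b at -0.69.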

How the data were processed

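RNA was measured in 3 Bcat1-KO and 3 control libraries. Total RNA was column-extracted with DNase digestion and prepared with a stranded kit that selects messenger RNA, per the labels' protocols. The submitters' processing notes name STAR 2.5.3a, featureCounts and the mm10 build, and the sources used here do not name the annotation release. The deposited counts are raw reads per gene, given in total and by strand, and the reverse-strand counts were used, which hold 96.4% to 96.5% of stranded reads. The deposited TPM values, scaled by the authors to the same total in each library, served as an alternative and for levels compared between genes.

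The expression filter of edgeR 4.0.16 kept 14020 of 49585 genes and removed 0.0511% of counts. Counts were scaled by TMM and compared by its quasi-likelihood test, with p-values adjusted over all tested genes by Benjamini-Hochberg and a threshold of 0.05, with no covariate. CPM values are TMM-scaled. The script was tested on simulated data. Alternatives were other scalings and filters, DESeq2 1.42.0, limma 3.58.1 on counts (voom) and on log2(TPM + 1), unstranded counts and a replicate block. Further ones were a gene length offset, the median of 51 neighbouring genes (the gene itself included) removed, and leaving out each library. R 4.3.3 and Python 3.11.15 were used.

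Members and gene lists were chosen with earlier results of these data known. The text names all mitochondrially encoded members, isoform families and members called lower. It adds up to 3 genes per group and direction, and up to 3 per list, with the largest change among those called, at a mean log2 CPM of at least 2 with no overlap for members and at least 0 for lists. Sdha, Uqcrfs1, Uqcrh, Ndufb10, Ndufs3, Ndufa1, Atp5a1, Atp5b, Esrra, Pprc1, Ppargc1b, Nrf1, Gabpa, Gabpb1, Gabpb2, Yy1, Polrmt, Slirp, Lrpprc, Tfam and Tfb2m were named after their values were seen. The motif letters are those printed with the sequences.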

Additional observations from a re-analysis of the deposited data

Results flagged for a closer look

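Reads on the strand opposite to a mitochondrial gene were not used in the comparisons above, and for 4 genes their share of the gene's stranded reads was higher in every knockout library than in every control library. Over mt-Nd5 this share was 2.18%, 1.37% and 4.16% in the knockout libraries, against 1.15%, 1.12% and 1.04% in the controls, or 2.57% ± 1.43 against 1.11% ± 0.0574 (SD, n = 3 each). Over mt-Nd4 it was 1.56%, 0.957% and 1.03% against 0.283%, 0.391% and 0.373%, or 1.18% ± 0.331 against 0.349% ± 0.0581. Over mt-Nd2 it was 0.177% ± 0.0545 against 0.0716% ± 0.0276, and over mt-Nd1 0.0804% ± 0.0153 against 0.0544% ± 0.0124. The share overlapped between the groups over mt-Co1 and mt-Cytb. The reads themselves numbered 43, 89 and 87 against 99, 64 and 42 over mt-Nd1 and 39, 79 and 93 against 40, 49 and 25 over mt-Nd2, and overlapped between the groups. The reads on the gene's own strand, which enter the share, were called lower for mt-Nd1, mt-Nd2 and mt-Nd4. Over mt-Nd4 the reads numbered 351, 319 and 224 against 105, 115 and 90, and over mt-Nd5 808, 611 and 1394 against 434, 351 and 257, with no overlap. The fewest such reads in a library were 257 for mt-Nd5, 90 for mt-Nd4, 25 for mt-Nd2 and 42 for mt-Nd1, and no test was run on the shares.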

How the results depend on the processing

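The count of nuclear subunit genes called higher ran from 50 to 58 over all alternatives, and 50 to 54 of these were among the 54 of the main comparison. The count of mitochondrially encoded genes called higher was 1 in each, though with unstranded counts the value of that gene, mt-Nd6, was 0.27 in place of 0.94. Of the 3 nuclear subunit genes called lower, 1 was left with limma on log2(TPM + 1) and 0 with the neighbourhood median removed, and leaving out 1 library gave 1 to 5 (5 without knockout replicate 1, and 1 without knockout replicate 2, control replicate 2 or control replicate 3). Against 4 mitochondrially encoded genes called lower, DESeq2 and limma on log2(TPM + 1) gave 2 each, and leaving out 1 library gave 1 to 5 (2 without knockout replicate 3 and 1 without control replicate 1). With the neighbourhood median removed, Atp5d (0.13), Ndufa13 (0.24), Ndufs7 (0.12) and Cox4i1 (0.31) turned from negative to positive, which follows from the lower medians around them. Mitochondrial genes have no such neighbourhood and were not run in it. The log2 ratio of mitochondrial to nuclear counts ran from -0.70 to -0.30 without 1 library and was -0.61 on TPM. Replicate numbers are shared between the groups, and deviations of same-numbered libraries correlated at -0.05, -0.07 and 0.16. For 1 of the 3 knockout libraries the best correlation was with its own number. With 3 libraries per group, these values cannot decide whether same-numbered libraries were paired. With a replicate block, 53 nuclear subunit genes were called higher and 3 lower, and 1 mitochondrially encoded gene higher and 3 lower, and Atp5b lost its call (edgeR adjusted p = 0.0598). Depth limits mt-Nd3, mt-Nd4l, Cox7a1 and Cox8b, which have few counts, and 3 libraries per group limit all estimates.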
